A study of Mus musculus with 2 samples.

Results

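Mlf1, Slc38a3, Slc15a5, Pfkfb1, Rpl3l, Nrbp2 and Grip2 are 7 of the 32285 genes counted in 2 libraries of single-nucleus RNA sequencing from mouse tibialis anterior (the shin muscle that lifts the foot). They were chosen because they had stood higher in fibre nuclei of the library labelled AHRmKO than in those of the library labelled AHRfl/fl, so the differences between libraries given for them are a description and carry no test. Nuclei came from male mice of 16 to 20 weeks with chronic kidney disease, taken 5 days after the femoral artery had been tied off to starve the limb of blood. Both groups have the same strain entry, a cross between AHRtm3.1Bra/J, which carries a floxed Ahr allele, and Tg(ACTA1-cre/Esr1*)2Kesr/J, a transgene in which the skeletal actin promoter drives a Cre that a ligand of its receptor part switches on. The title of the study concerns this receptor in muscle, and the names AHRfl/fl and AHRmKO are not spelled out. The labels state neither the switching agent, nor whether the AHRfl/fl mice carried the transgene, nor how many animals each library came from. With 1 library per group, differences have no replicate check, and what differs between animals or preparations cannot be told apart from genotype.

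A muscle fibre is a single cell with many nuclei, and after injury satellite cells fuse into new fibres that first make the embryonic myosin Myh3 and later switch to the adult fast myosins Myh4, Myh1 and Myh2. Adult fast fibres run on phosphocreatine and glycolysis, hold large pools of glutamine, and replace some general parts of the cell, ribosomal proteins among them, by versions particular to striated muscle. The aryl hydrocarbon receptor AHR, named in the labels of both groups, is a transcription factor that small molecules switch on, including waste products that a failing kidney retains.

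The 7 genes have different known roles. Slc38a3 is a sodium-coupled transporter of glutamine and Slc15a5 belongs to the family of proton-coupled peptide transporters. Pfkfb1 is the liver and muscle form of the enzyme that makes and removes the regulatory form of fructose bisphosphate. This form is not the intermediate of glycolysis but a signal that sets its pace. Rpl3l is the striated muscle version of the ribosomal protein Rpl3. Mlf1 is myeloid leukaemia factor, a protein abundant in muscle, Nrbp2 is a pseudokinase related to the nuclear receptor binding protein Nrbp1, and Grip2 is a scaffold of PDZ domains that binds glutamate receptors.

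Promoter windows, running from 250 bases before to 50 after a start site, were found for 5 of the 7 genes in RefSeq (GRCm38.p6), with 9 start sites in all. They were searched on both strands for GCGTG, the core of the site bound by AHR, for CAGCTG, a palindromic site of muscle basic helix-loop-helix factors, and for the MEF2 consensus, a site of muscle transcription factors. No motif shares bases with another in these windows. Windows of Mlf1, Pfkfb1 and Rpl3l are shown because these genes differed between libraries in the same fibre nuclei and hold the motifs, which are in capitals. GCGTG on the opposite strand reads CACGC, and positions count from 1 at the left.
Mlf1 (plus strand, chr3:67373847-67374146): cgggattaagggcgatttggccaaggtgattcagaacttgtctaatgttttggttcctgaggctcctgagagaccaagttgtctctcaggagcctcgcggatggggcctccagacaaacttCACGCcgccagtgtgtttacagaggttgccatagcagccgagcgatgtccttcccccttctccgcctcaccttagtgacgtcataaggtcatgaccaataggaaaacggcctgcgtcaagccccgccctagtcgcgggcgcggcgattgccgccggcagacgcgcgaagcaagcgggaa
Pfkfb1, start 2 (plus strand, chrX:150587993-150588292): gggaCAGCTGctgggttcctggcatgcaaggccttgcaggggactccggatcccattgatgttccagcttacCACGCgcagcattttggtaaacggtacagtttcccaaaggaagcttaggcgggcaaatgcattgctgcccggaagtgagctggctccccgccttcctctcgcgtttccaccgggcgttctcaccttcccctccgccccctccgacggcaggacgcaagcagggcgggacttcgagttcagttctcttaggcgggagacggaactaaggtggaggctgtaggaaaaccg
Pfkfb1, start 3 (plus strand, chrX:150589666-150589965): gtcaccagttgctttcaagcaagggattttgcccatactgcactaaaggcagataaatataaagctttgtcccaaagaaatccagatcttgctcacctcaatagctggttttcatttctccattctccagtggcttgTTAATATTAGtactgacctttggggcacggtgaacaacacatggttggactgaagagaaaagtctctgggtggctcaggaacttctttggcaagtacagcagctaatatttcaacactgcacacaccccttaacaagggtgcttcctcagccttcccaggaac
Rpl3l, start 1 (plus strand, chr17:24727576-24727875): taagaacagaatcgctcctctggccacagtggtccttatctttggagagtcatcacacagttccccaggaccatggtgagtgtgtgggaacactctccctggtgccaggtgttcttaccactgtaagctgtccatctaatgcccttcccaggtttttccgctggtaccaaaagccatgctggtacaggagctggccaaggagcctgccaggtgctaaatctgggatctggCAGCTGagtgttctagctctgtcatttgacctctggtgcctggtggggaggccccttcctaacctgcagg
Rpl3l, start 2 (plus strand, chr17:24732435-24732734): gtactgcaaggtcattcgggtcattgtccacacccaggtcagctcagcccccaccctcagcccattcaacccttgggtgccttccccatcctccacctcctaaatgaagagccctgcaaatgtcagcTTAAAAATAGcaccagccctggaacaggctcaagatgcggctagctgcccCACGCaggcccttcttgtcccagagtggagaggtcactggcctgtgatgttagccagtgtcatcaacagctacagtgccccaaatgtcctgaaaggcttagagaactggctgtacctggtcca
GCGTG lay at position 122 for Mlf1, at 73 for the second Pfkfb1 start and at 178 for the second Rpl3l start. It was present in 32.4% of all 32817 windows. CAGCTG lay at position 231 of the first Rpl3l start and at 5 of the second Pfkfb1 start, and was present in 16.3% of windows. The MEF2 consensus lay at position 138 of the third Pfkfb1 start and at 128 of the second Rpl3l start, and was present in 3.19%. The windows of Slc15a5 (minus strand, chr6:138079867-138080166) and Grip2 (minus strand, chr6:91807344-91807643) held none of the 3. Which start site the nuclei used was not measured.

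The libraries differ in ways that touch every value below. In all, 151788328 unique molecular identifiers (UMIs, each standing for a captured RNA molecule) were deposited for AHRfl/fl and 113737134 for AHRmKO, over 2428718 and 2502183 barcodes. A barcode stands for a droplet, and 19056 and 9015 barcodes had 2000 or more UMIs. A barcode was taken as a fibre nucleus when the structural genes Ttn, Neb, Trdn and Dmd made up at least 1% of its UMIs, which held for 5144 and 3771 barcodes. Of these, 1790 and 1850 had Myh3 under 0.1% of UMIs (Myh3-low), and 3354 and 1921 had it at or above (Myh3-high). Libraries shared 43 barcodes of 2000 or more UMIs, 7 of them in both fibre gates. No doublets were removed.

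The check of the gate showed it to be mixed. In Myh3-low barcodes, 538 of 1790 (30.1%) in the AHRfl/fl library also carried markers of macrophages, against 171 of 1850 (9.24%) in the AHRmKO library, while markers of satellite cells were carried by 103 (5.75%) and 492 (26.6%). All 10 macrophage markers were detected there, at a summed 1603 and 707 counts per 1000000 UMIs (CPM), and all 8 satellite cell markers, at 582 and 1127 CPM. Median depth was 5012.5 and 3447.5 UMIs, and the median mitochondrial share 0.698% and 2.52%. Gm42418, a locus that overlaps ribosomal RNA, was at 2791 and 31938 CPM. The part of these differences in the results was not tested. The 5 erythroid markers summed to 162 and 363 CPM and the 6 adipocyte markers to 43.6 and 94.7 CPM, with Lep at 0 in the AHRmKO library, and their part was not tested either. A stricter gate of 5%, which left 152 and 643 Myh3-low barcodes, is given beside the main results. There macrophage markers were on 49 (32.2%) and 78 (12.1%) barcodes, at a summed 930 and 528 CPM, and satellite cell markers on 0 and 14, at 111 and 161 CPM with Calcr at 0 in both. Erythroid markers summed there to 189 and 1145 CPM, with none at 0, and adipocyte markers to 156 and 269 CPM, with Adipoq, Cidec and Lep at 0 in both. The stricter gate thus had lower summed levels of macrophage and satellite cell markers, and higher ones of erythroid and adipocyte markers.

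Ahr, the gene that carries the floxed allele, did not differ beyond counting error in either of the 2 main fibre sets. In Myh3-low barcodes it was at 24.0 CPM (260 UMIs) in the AHRfl/fl library and 22.0 CPM (178 UMIs) in the AHRmKO library. In Myh3-high ones it was at 34.8 and 32.1 CPM, and at the 5% gate of Myh3-low at 5.33 CPM (4 UMIs) against 7.14 CPM (16 UMIs). It was lower in the AHRmKO library among Myh4-dominant Myh3-low barcodes, at 22.7 CPM (95 UMIs) against 14.0 CPM (34 UMIs), a log2 ratio of -0.68 (-1.31 to -0.12). Among Myh1-dominant ones it was at 29.0 CPM (120 UMIs) against 20.3 CPM (39 UMIs), with an interval that holds 0 (-0.51, -1.08 to 0.01). The median share of gate genes (Ttn, Neb, Trdn and Dmd) was 3.08% and 7.93% in the Myh4-dominant set and was not held fixed. In Myh3-low barcodes with that share at 1 to 2%, Ahr was at 25.2 and 31.8 CPM, and at 5 to 10% at 5.38 and 8.80 CPM. Myh4-dominant ones at 5 to 10% had Ahr at 3.53 CPM (2 UMIs) and 8.13 CPM (6 UMIs). The 5% gate of Myh3-high barcodes had it at 30.5 CPM (28 UMIs) and 37.5 CPM (214 UMIs). Gene-level sums cannot show whether single exons are missing, and every direction here is between libraries as labelled. Below, the AHRfl/fl value always comes first.

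In Myh3-low fibre barcodes, 5 of the 7 genes, Mlf1, Slc38a3, Slc15a5, Pfkfb1 and Rpl3l, stood between 7.84-fold (Pfkfb1) and 30.7-fold (Slc15a5) higher in the AHRmKO library, and Nrbp2 and Grip2 did not stand higher. In Myh3-high barcodes Nrbp2 and Grip2 were higher by 3.11-fold and 2.24-fold. The other 5 genes were scarce there in both libraries, at 8.17 CPM or less, with Mlf1 (0.453 against 1.90 CPM, on 9 and 20 UMIs) and Slc38a3 (3.17 against 8.17 CPM) also more than 2-fold higher. Both depended on the processing. Mlf1 turned to a log2 ratio of -0.76 with the RNA profile of barcodes of 200 to under 500 UMIs subtracted, and Slc38a3 fell to 0.20 at the 5% gate. The grouping of the 7 as higher in fibre nuclei of the AHRmKO library thus did not hold for Nrbp2 and Grip2 in all Myh3-low barcodes. Ratios are given as log2 of AHRmKO over AHRfl/fl with 0.5 CPM added to each, which understates the change of low genes. Their 95% intervals, like those of the levels, cover counting error only. The intervals of the ratios are computed without the 0.5 CPM, so for low genes they are not centred on the printed ratio. In sums of this kind, fewer nuclei that express a gene and less RNA in each cannot be told apart.

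**Figure D1:**
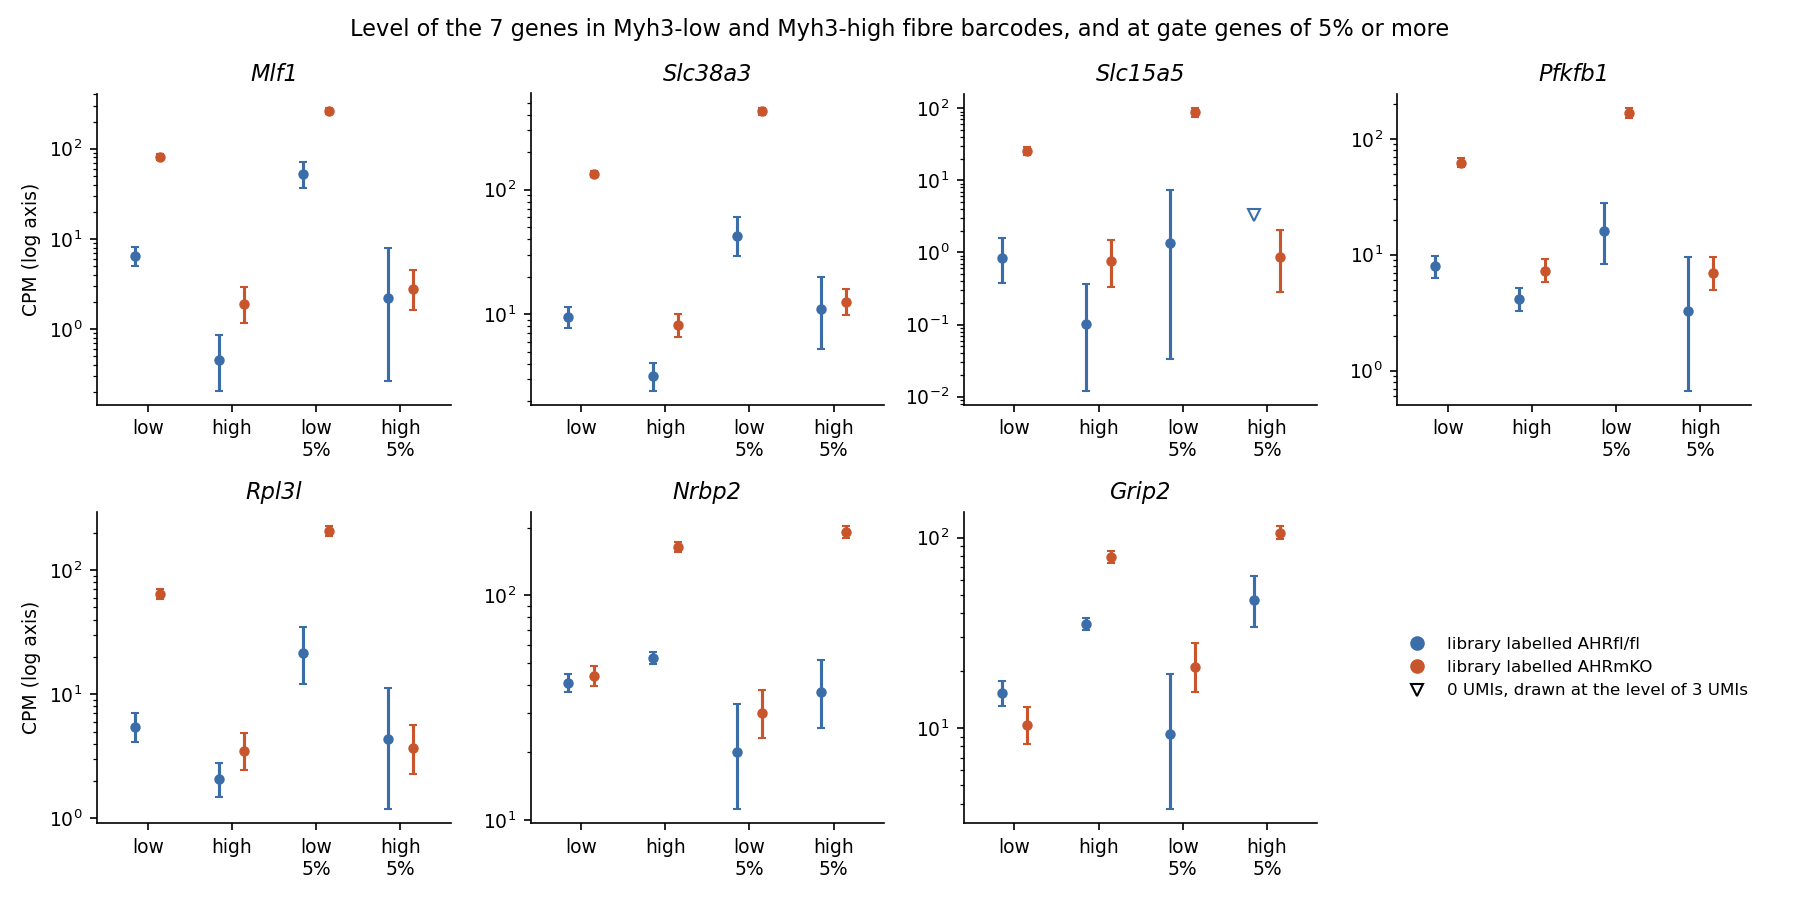
Level of each gene in CPM (log axis) in Myh3-low and Myh3-high fibre barcodes, and in those with gate genes at 5% or more of UMIs, in the library labelled AHRfl/fl (blue) and AHRmKO (orange-red). Points are sums over barcodes of 1 library and bars exact 95% Poisson intervals, with 0 UMIs drawn as a triangle at the level of 3. In Myh3-low barcodes the intervals of the libraries do not overlap for the first 5 genes, higher in AHRmKO, and for Grip2, lower there. In Myh3-high barcodes they do not overlap for Mlf1, Slc38a3, Pfkfb1, Nrbp2 and Grip2, all higher in AHRmKO.

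Slc38a3 (ENSMUSG00000010064, chromosome 9, 107650634 to 107669530, minus strand, GRCm38), the glutamine transporter, was at 9.42 CPM (102 UMIs; 7.68 to 11.4) in Myh3-low barcodes of the AHRfl/fl library. In the AHRmKO library it was at 133 CPM (1080 UMIs; 125 to 141). The log2 ratio was 3.75 (3.53 to 4.13), and the counting intervals of the levels do not overlap. Where gate genes reached 5%, the levels were 42.7 CPM (32 UMIs) against 428 CPM (960 UMIs), which gave a log2 ratio of 3.31 (2.82 to 3.88). Both libraries thus had more Slc38a3 where fibre genes made up more of the barcode, and the gap stayed.

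Slc15a5 (ENSMUSG00000044378, chromosome 6, 137983586 to 138079916, minus strand), the other transporter, was close to undetected in the AHRfl/fl library. There it had 9 UMIs in Myh3-low barcodes (0.831 CPM, 0.380 to 1.58), against 207 UMIs (25.5 CPM, 22.2 to 29.3) in the AHRmKO library, a log2 ratio of 4.29 (3.99 to 6.09). The stricter gate held 1 UMI against 199 (1.33 and 88.7 CPM), a log2 ratio of 5.61 with the wide interval of 3.56 to 11.37. Its ratio was the largest of the 7 in both gates, on 9 UMIs and 1 UMI in the AHRfl/fl library.

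Pfkfb1 (ENSMUSG00000025271, chromosome X, 150588229 to 150643878, plus strand), the enzyme of fructose bisphosphate, was at 7.94 CPM (86 UMIs; 6.35 to 9.81) against 62.3 CPM (505 UMIs; 57.0 to 68.0), which gave a log2 ratio of 2.89 (2.64 to 3.32). Behind the stricter gate it was at 16.0 CPM (12 UMIs) against 168 CPM (376 UMIs), which gave a log2 ratio of 3.35 (2.57 to 4.35). Pfkfb1 overlaps Apex2 on the opposite strand, and whether the counting used strand is not given in the sources used here. Apex2 was also higher, at 70.7 and 153 CPM in Myh3-low barcodes (log2 ratio 1.11) and at 76.0 and 292 CPM at the 5% gate (1.93). The Pfkfb1 values are uncertain to that extent.

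Rpl3l (ENSMUSG00000002500, chromosome 17, 24727820 to 24736143, plus strand), the muscle ribosomal protein, was at 5.45 CPM (59 UMIs; 4.15 to 7.03) against 64.1 CPM (520 UMIs; 58.8 to 69.9), which gave a log2 ratio of 3.44 (3.17 to 3.97). With gate genes at 5% it was at 21.3 CPM (16 UMIs) against 206 CPM (463 UMIs), which gave a log2 ratio of 3.24 (2.56 to 4.09). Mlf1 (ENSMUSG00000048416, chromosome 3, 67374097 to 67400003, plus strand) was at 6.37 CPM (69 UMIs; 4.96 to 8.07) against 80.2 CPM (650 UMIs; 74.1 to 86.6), which gave a log2 ratio of 3.55 (3.29 to 4.03). Its gap was smaller at the 5% gate, where it was at 52.0 CPM (39 UMIs) against 263 CPM (590 UMIs), which gave a log2 ratio of 2.33 (1.87 to 2.85).

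Nrbp2 (ENSMUSG00000075590, chromosome 15, 76085518 to 76091627, minus strand), the pseudokinase, was level between the libraries in Myh3-low barcodes within counting error. Its 441 UMIs made 40.7 CPM (37.0 to 44.7) and its 355 UMIs 43.8 CPM (39.4 to 48.6), for a ratio of 0.10 (-0.10 to 0.31) on the log2 scale. Its 5% gate held 20.0 CPM (15 UMIs) against 29.9 CPM (67 UMIs), a log2 ratio of 0.57 whose interval also holds 0 (-0.24 to 1.49). Grip2 (ENSMUSG00000030098, chromosome 6, 91761509 to 91827250, minus strand), the scaffold, was lower in the AHRmKO library there, at 15.2 CPM (165 UMIs) against 10.4 CPM (84 UMIs), which gave a log2 ratio of -0.53 (-0.95 to -0.17). On the 7 and 47 UMIs of the 5% gate, that ratio was 1.13 (0.01 to 2.56), so the direction for Grip2 in Myh3-low barcodes depends on the gate. With the RNA profile of barcodes of 200 to under 500 UMIs subtracted it was -2.25.

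In Myh3-low barcodes 5 of the 7 genes were therefore 2-fold or more higher in the AHRmKO library, where 11.0% of the 15639 genes with 20 or more UMIs were. The rule for choosing the genes used this contrast, so nothing is read from that count. The 5 ranked 5 (Slc15a5), 10 (Slc38a3), 12 (Mlf1), 15 (Rpl3l) and 43 (Pfkfb1) from the top of those genes. By the same measure 6 of 7 were higher at the 5% gate, Nrbp2 being the exception, beside 13.6% of 9771 genes. Their median log2 ratio was 3.44 and 3.24 in the 2 gates, beside -0.04 and 0.04 over all genes.

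With barcodes that carried markers of another cell class left out, 999 and 1088 Myh3-low barcodes remained. The same 5 genes were 2-fold or more higher (background 11.0%), with log2 ratios of 4.11 for Mlf1, 4.12 for Slc38a3, 4.78 for Slc15a5, 3.35 for Pfkfb1 and 3.87 for Rpl3l. Each of these exceeds its value with those barcodes kept. Among the barcodes with macrophage markers alone, 538 and 171, the ratios were 3.50, 4.04, 4.73, 3.13 and 3.10 in the same order. Among the 103 and 492 with satellite cell markers, the 5 genes had at most 3 UMIs each in the AHRfl/fl library and at most 50 in the AHRmKO library (Pfkfb1), at 22.3 CPM or less.

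Myh3-high barcodes held Nrbp2 and Grip2. Nrbp2 was at 52.8 CPM (1050 UMIs; 49.7 to 56.1) against 164 CPM (1730 UMIs; 157 to 172), which gave a log2 ratio of 1.63 (1.53 to 1.75). Grip2 was at 35.3 CPM (702 UMIs; 32.8 to 38.0) against 79.2 CPM (834 UMIs; 73.9 to 84.8), which gave a log2 ratio of 1.15 (1.02 to 1.31). Neither pair of intervals overlaps. In the 175 and 1161 barcodes of the 5% gate, Nrbp2 was at 37.1 CPM (34 UMIs) against 192 CPM (1096 UMIs), which gave a log2 ratio of 2.36 (1.88 to 2.91). Grip2 was there at 46.9 CPM (43 UMIs) against 106 CPM (607 UMIs), which gave a log2 ratio of 1.17 (0.73 to 1.66). Fibre content was not held fixed in either set. The median share of gate genes was 2.93% and 5.62% in all Myh3-high barcodes, with Ttn at 16874 and 42665 CPM. At the 5% gate it was 5.56% and 6.90%, with Ttn at 35678 and 56109 CPM. The part of this in the 2 genes' ratios was not tested.

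The other 5 genes ranged in Myh3-high barcodes from 0.101 CPM (Slc15a5, 2 UMIs) to 4.13 CPM (Pfkfb1, 82 UMIs) in the AHRfl/fl library and from 0.760 CPM (Slc15a5, 8 UMIs) to 8.17 CPM (Slc38a3, 86 UMIs) in the AHRmKO library. Their log2 ratios lay between 0.65 (Rpl3l) and 1.33 (Mlf1, on 9 and 20 UMIs), and both of these signs depended on the processing. Rpl3l turned under 5 of 21 alternatives, down to -1.63 with Myh3 split at 0.5%. Free RNA scaled to the barcodes of 200 to under 500 UMIs would bring 1.91 CPM of Mlf1 to the AHRmKO library, where 1.90 CPM were observed, and Mlf1 was at -0.76 with that profile subtracted. Of the 6 genes with 20 or more UMIs, 4 (Mlf1, Slc38a3, Nrbp2 and Grip2) were 2-fold or more higher, beside 5.95% of 16381 genes. With that profile subtracted 3 were, and with that of barcodes of at most 100 UMIs subtracted 2. Median log2 was 1.20 over the 6 and -0.15 over all genes. With gate genes at 5%, only Nrbp2 and Grip2 were, of 5 with 20 or more UMIs, beside 14.7%, and the log2 ratio of Slc38a3 was 0.20 (-0.75 to 1.33). Macrophage markers were on 800 (23.9%) and 133 (6.92%) Myh3-high barcodes, and satellite cell markers on 115 (3.43%) and 375 (19.5%). The 10 and 8 markers summed to 1260 and 409 CPM and to 498 and 622 CPM, with none at 0. Without any barcode carrying another class's markers the log2 ratios of Nrbp2 and Grip2 were 1.64 and 1.36, and 4 of 6 genes were 2-fold or more higher beside 6.46% of genes. Markers of mural cells, which line vessels, were on 109 (3.25%) and 172 (8.95%) Myh3-high barcodes, and fibroadipogenic markers summed to 799 and 301 CPM. At the 5% gate macrophage markers were on 40 (22.9%) and 52 (4.48%) barcodes and satellite cell markers on 0 and 153 (13.2%). Mural markers were there on 5 (2.86%) and 128 (11.0%). The part of these differences in the ratios was not tested.

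**Figure D2:**
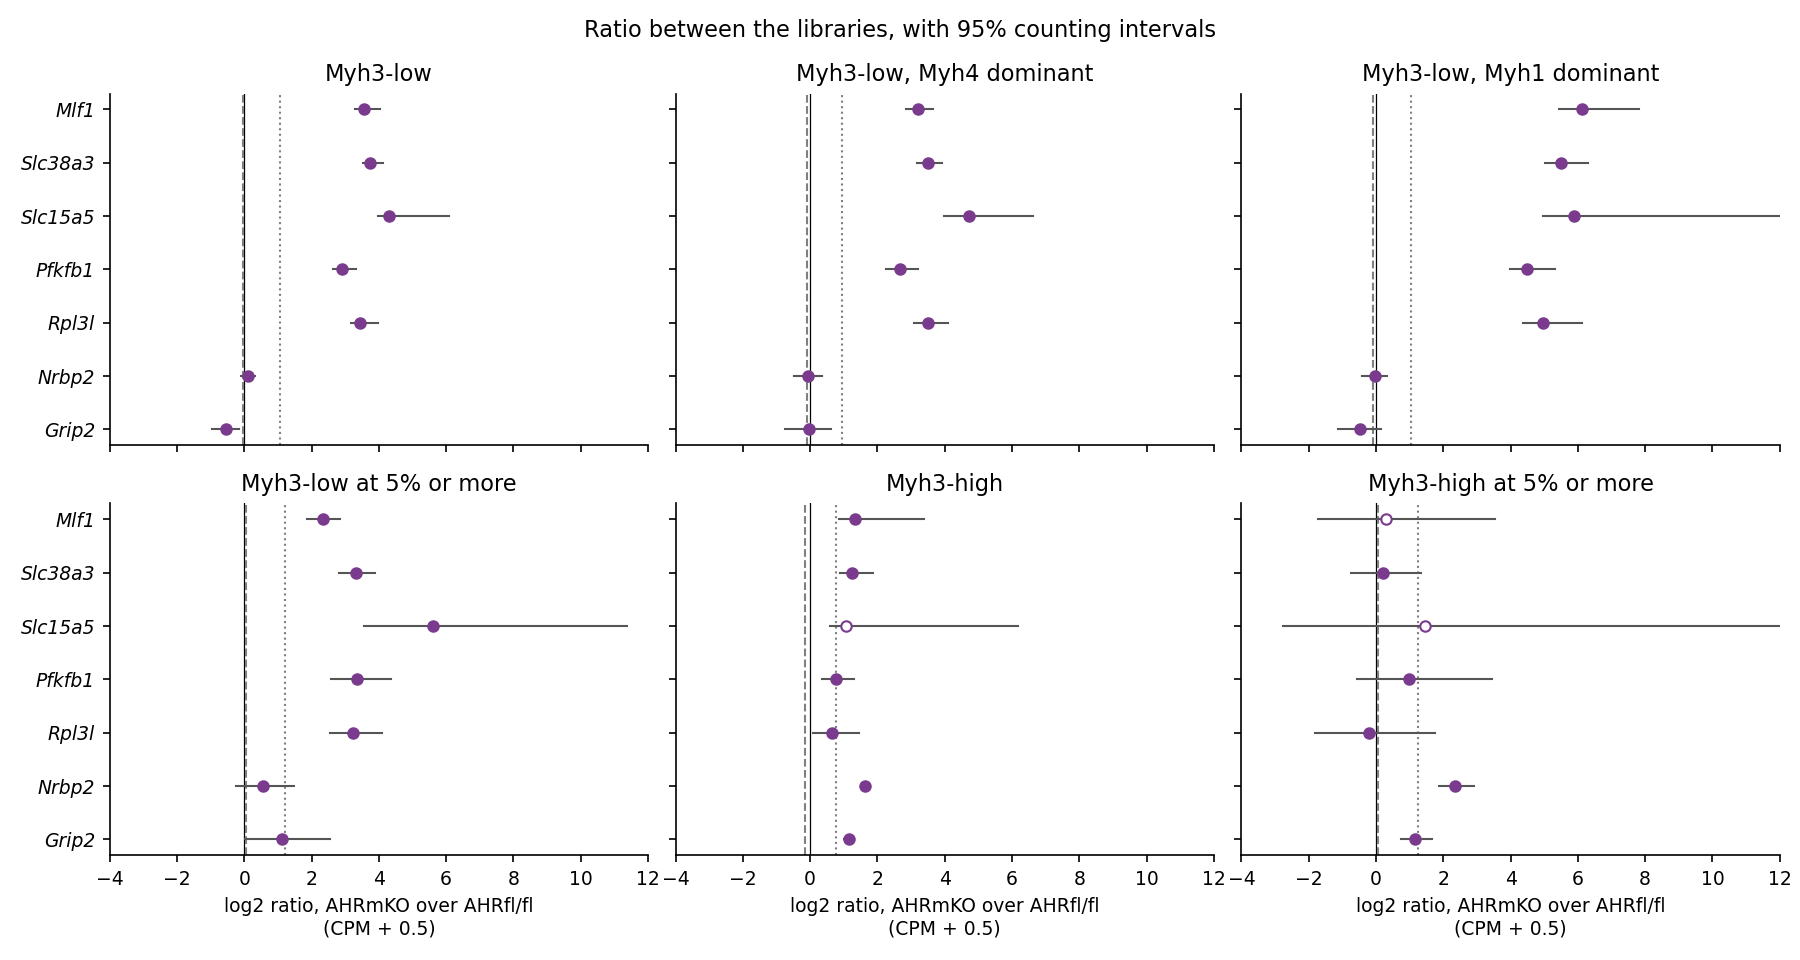
Log2 ratio of each gene, AHRmKO over AHRfl/fl, in 6 sets of fibre barcodes, with exact 95% counting intervals; dashed and dotted lines are the median and the 90th percentile over all genes with 20 or more UMIs, open points have fewer, and intervals past the axis are cut at its end. The first 5 genes lie right of the dotted line in all 4 Myh3-low panels, and in the Myh3-low panels of the upper row Nrbp2 lies between -0.06 and 0.10 and Grip2 between -0.53 and -0.04.

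Barcodes were next grouped by dominant adult myosin, for which no minimum number of UMIs was set. Adult myosins together reached 0.2% of UMIs in 373 of 1790 and 611 of 1850 Myh3-low barcodes, so many calls rested on a small share of UMIs. Barcodes of 200 to under 500 UMIs held Myh4 at 714 and 253 CPM and Myh1 at 617 and 268 CPM. The part of such RNA in the calls was not tested. Among Myh3-low barcodes with Myh4 as the dominant adult myosin, 672 and 563, Mlf1 was at 14.1 CPM (59 UMIs) against 133 CPM (324 UMIs), which gave a log2 ratio of 3.20. Slc38a3 was at 17.5 and 203 CPM (3.50), Slc15a5 at 1.43 and 50.6 CPM (4.72, on 6 and 123 UMIs), Pfkfb1 at 11.2 and 73.7 CPM (2.66) and Rpl3l at 9.56 and 114 CPM (3.50). Nrbp2 was at 33.5 and 32.1 CPM and Grip2 at 12.7 and 12.3 CPM. In these fibre barcodes, then, 5 of 7 were 2-fold or more higher, beside 9.08% of 13231 genes, as in Myh3-low barcodes as a whole.

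Where Myh1 was dominant, 615 and 421 barcodes, the AHRfl/fl levels were lower still. Mlf1 was at 1.69 CPM (7 UMIs) against 153 CPM (295 UMIs), which gave a log2 ratio of 6.13 (5.44 to 7.83). Slc38a3 was at 5.57 CPM (23 UMIs) against 276 CPM (530 UMIs), which gave a log2 ratio of 5.51 (5.03 to 6.30). Slc15a5 had 1 UMI against 84, Pfkfb1 22 against 252 and Rpl3l 13 against 220, with log2 ratios of 5.90, 4.50 and 4.98. Nrbp2 was at 49.6 and 48.3 CPM and Grip2 at 21.1 and 15.1 CPM. By count 5 of 7 were 2-fold or more higher, beside 10.6% of 13123 genes. The AHRmKO levels of Mlf1, Slc38a3, Pfkfb1 and Rpl3l were at or above those of the Myh4 barcodes, with overlapping intervals for Mlf1 and Rpl3l, while the AHRfl/fl levels of all 5 were below them.

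The Myh1 barcodes differ between libraries in their fibre content, which was not held fixed. The median share of gate genes was 2.17% and 5.08%, and Myh1 itself was at 1082 and 3520 CPM. For the Myh4 barcodes the shares were 3.08% and 7.93%, and Myh4 was at 1347 and 3304 CPM. A closer match came from Myh4-dominant Myh3-low barcodes with gate genes at 5 to 10% of UMIs, 117 and 203 of them. There Mlf1 was at 68.8 CPM (39 UMIs) against 224 CPM (165 UMIs), which gave a log2 ratio of 1.69 (1.19 to 2.24), and Slc38a3 at 52.9 CPM (30 UMIs) against 293 CPM (216 UMIs), a ratio of 2.46 (1.91 to 3.07). Slc15a5 had 1 and 68 UMIs (5.36, 3.18 to 11.03), Pfkfb1 10 and 89 (2.74, 1.83 to 3.88) and Rpl3l 15 and 133 (2.75, 2.00 to 3.65). These 5, of 6 genes with 20 or more UMIs, were above 2-fold, beside 13.9% of 7290 genes. In all Myh4-dominant Myh3-low barcodes the log2 ratios of Mlf1, Slc38a3 and Rpl3l were larger, at 3.20, 3.50 and 3.50. Those of Pfkfb1 and Slc15a5 were not, at 2.66 and 4.72. Fibre content still differed within this range, with a median share of gate genes of 5.79% and 7.93%, Ttn at 27192 and 51120 CPM, Myh4 at 3304 and 4729 CPM and Myh3 at 330 and 113 CPM.

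Myh1-dominant barcodes at the 5% gate numbered 26 and 212. In the former Mlf1, Slc15a5 and Pfkfb1 had 0 UMIs, which allows up to 21.1 CPM at 3 counts. Set against that limit, Mlf1 (270 UMIs, 328 CPM) was at least 15.5-fold higher in the AHRmKO library. Pfkfb1 (224 UMIs, 272 CPM) was at least 12.9-fold higher and Slc15a5 (80 UMIs, 97.2 CPM) at least 4.60-fold. These bounds take the AHRmKO levels as printed and leave out their counting error. Rpl3l had 1 and 200 UMIs and Slc38a3 2 and 493. Myh2 was dominant in only 8 and 30 Myh3-low barcodes. The AHRfl/fl ones held 0 UMIs of all the genes but Nrbp2 (2 UMIs), and 0 allows up to 66.7 CPM. The AHRmKO ones held Slc38a3 at 394 CPM (46 UMIs; 288 to 525) and Rpl3l at 171 CPM (20 UMIs; 105 to 264), Mlf1 with 17 UMIs and Pfkfb1 with 15, and no Slc15a5 or Nrbp2. At these printed AHRmKO levels, with their counting error left out, Slc38a3 was at least 5.91-fold and Rpl3l at least 2.57-fold higher. In the 495 and 836 Myh3-low barcodes with no dominant adult myosin, the 5 genes were at 0.811 to 6.89 CPM and at 0 to 16.2 CPM (Pfkfb1, 59 UMIs).

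Mlf1, Slc38a3 and Rpl3l were higher at each step in the share of gate genes, in both libraries. In Myh3-low barcodes at 1 to 2%, 799 and 687 of them, Mlf1 was at 0.795 and 3.83 CPM. At 2 to 3% it was at 3.11 and 8.40 CPM, at 3 to 5% at 6.81 and 33.6 CPM, and at 5 to 10% at 52.4 and 242 CPM (151 and 386 barcodes). Above 10% the AHRfl/fl library had 1 barcode and the AHRmKO library 257, with Mlf1 at 304 CPM. Slc38a3 followed the same order, from 2.38 and 6.78 CPM at 1 to 2% to 43.0 and 394 CPM at 5 to 10%, and Rpl3l from 0.993 and 3.54 CPM to 21.5 and 192 CPM. Pfkfb1 went from 6.95 and 16.2 CPM to 16.1 and 173 CPM, and was at 158 CPM above 10%. Slc15a5 stayed at 1.79 CPM or less in the AHRfl/fl library, and in the AHRmKO library was at 0 CPM at 1 to 2% and 102 CPM above 10%.

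Between libraries the gap widened along this scale for some genes. The log2 ratio of Slc38a3 was 1.34, 1.18, 2.18 and 3.18 in the 4 ranges and that of Pfkfb1 1.17, 1.76, 2.08 and 3.38, while that of Mlf1 was 1.74, 1.30, 2.22 and 2.20. The intervals of the first and last range do not overlap for Slc38a3 and Pfkfb1, and overlap for Mlf1. None of the 4 ranges was matched in all fibre genes. Up to 5% the median shares of gate genes were close, at 1.38% and 1.38%, 2.43% and 2.37%, and 3.79% and 3.84%. Ttn alone was in these ranges at 9292 and 12521 CPM, 12838 and 20919 CPM, and 18067 and 31571 CPM. At 3 to 5% Myh4 was at 1061 and 596 CPM, Myh1 at 919 and 429 CPM and Pax7 at 41.5 and 271 CPM. At 5 to 10% they were 5.76% and 7.55%, with Ttn at 27662 and 49332 CPM. The part of these differences in the ratios and in the wider gap was not tested. Nrbp2 was between 41.3 and 70.0 CPM in the AHRmKO library up to 10%, and at 6.54 CPM (5 UMIs) above it. Grip2 was between 5.90 and 21.0 CPM there, and in the AHRfl/fl library between 9.14 and 24.7 CPM.

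**Figure D3:**
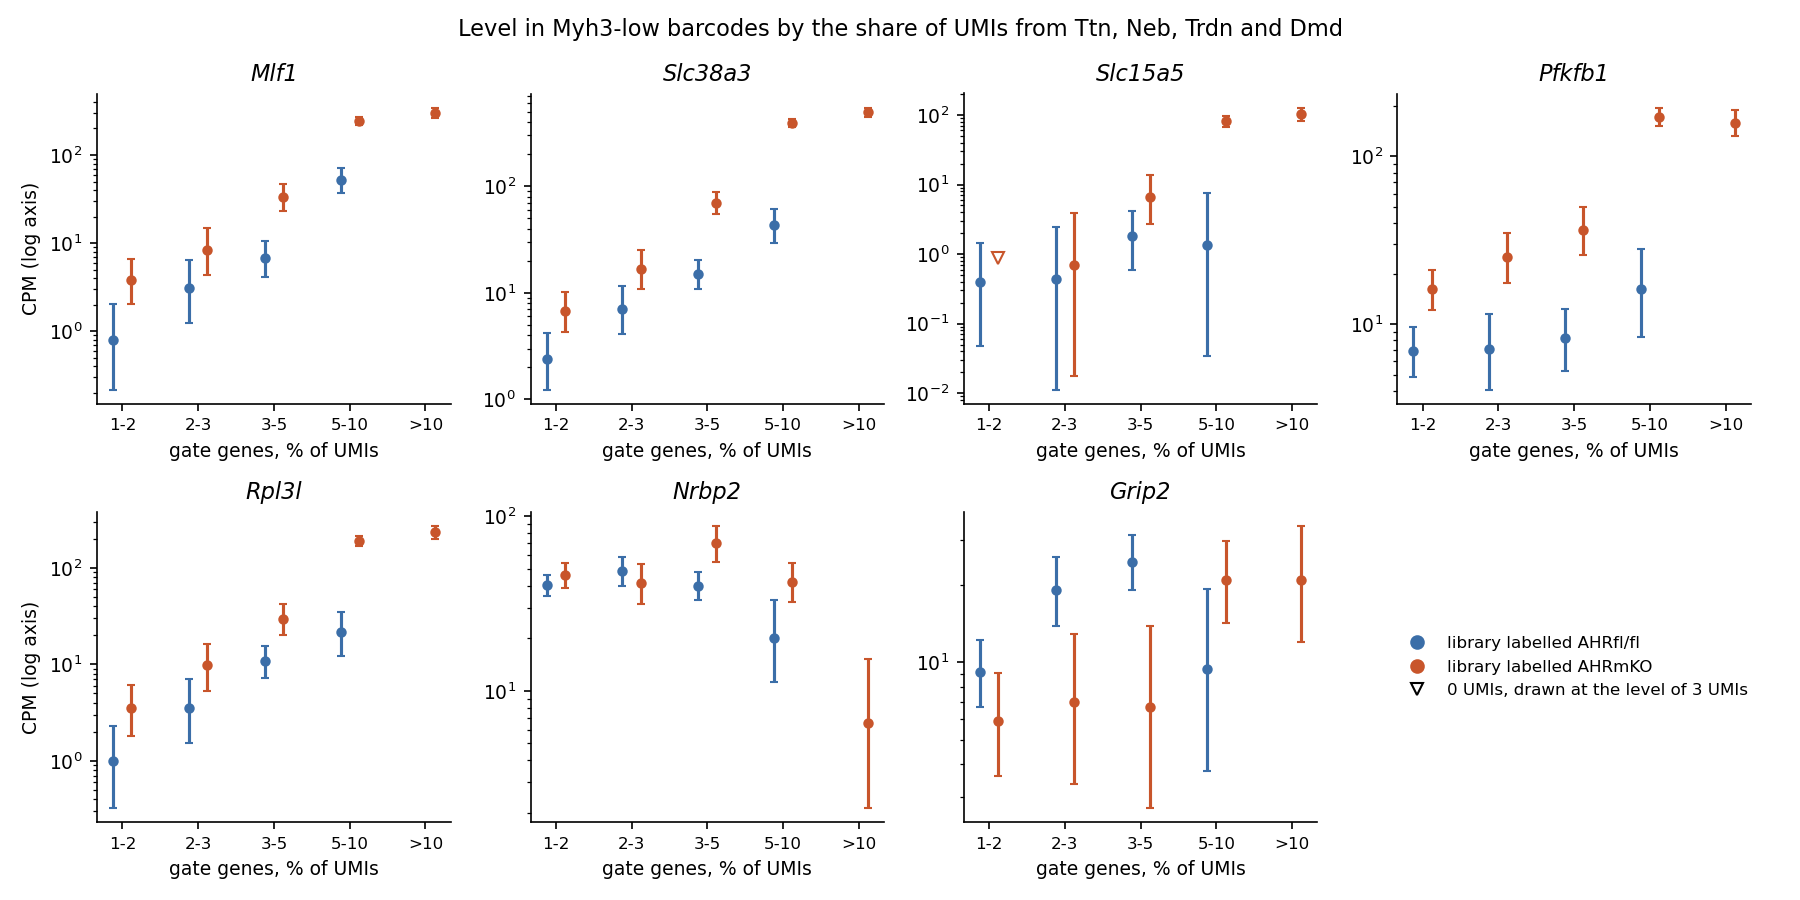
Level in CPM (log axis) in Myh3-low barcodes grouped by the percent of UMIs from Ttn, Neb, Trdn and Dmd, for each gene and library, with exact 95% Poisson intervals; a set with fewer than 20 barcodes (above 10% in the AHRfl/fl library) is not drawn. Mlf1 goes from 0.795 to 52.4 CPM in the AHRfl/fl library and from 3.83 to 304 CPM in the AHRmKO library, whereas Nrbp2 is lowest in the last set.

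Within each library, the 5 genes were higher in Myh3-low barcodes, and Nrbp2 and Grip2 in Myh3-high ones. In the AHRfl/fl library Mlf1 was at 6.37 CPM in Myh3-low and 0.453 CPM in Myh3-high barcodes, a log2 ratio of low over high of 2.85. In the AHRmKO library it was at 80.2 and 1.90 CPM, a ratio of 5.07. Slc38a3 had ratios of 1.43 and 3.95, Rpl3l of 1.21 and 4.01, Pfkfb1 of 0.87 and 3.01, and Slc15a5 of 1.15 (on 11 UMIs) and 4.37. Nrbp2 and Grip2 were on the other side in both, with -0.37 and -1.90 for Nrbp2 and -1.19 and -2.88 for Grip2.

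By count, 3 of 6 genes with 20 or more UMIs were 2-fold or more higher in Myh3-low barcodes of the AHRfl/fl library (background 3.07%) and 1 was lower (0.949%). In the AHRmKO library 5 of 7 were higher (13.5%) and 2 lower (6.91%). With the stricter gate the counts were 3 higher and 1 lower of 5 (9.04% and 12.1%), and 5 and 2 of 7 (12.8% and 19.9%). The genes were chosen on sums of these same barcodes, so nothing is read from these counts. Myh3 itself separates the sets less sharply in the AHRfl/fl library. It was at 542 and 2131 CPM in Myh3-low and Myh3-high barcodes there, and at 186 and 3685 CPM in the AHRmKO library. In barcodes of 200 to under 500 UMIs it was at 2912 CPM in the AHRfl/fl library and 427 CPM in the AHRmKO library. Scaled to the estimated share of free RNA (15.7% and 35.7% of UMIs in Myh3-low barcodes), that profile would bring 456 of the 542 CPM and 152 of the 186 CPM. The profile of barcodes of at most 100 UMIs (23.1% and 28.2%) would bring 373 and 228 CPM, the latter more than was observed, so these shares are rough. The split at 0.1% was set on Myh3 with this free RNA included. Within 20% of the 0.1% limit lay 774 of the 5144 AHRfl/fl fibre barcodes and 157 of the 3771 AHRmKO ones. Just under and just over the limit, at 0.08 to 0.1% and 0.1 to 0.12%, Nrbp2 was at 46.5 and 55.9 CPM in the first library and 81.2 and 138 CPM in the second.

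How many nuclei held the genes was compared with every barcode thinned to 2000 UMIs. At the 5% gate of Myh3-low barcodes, Slc38a3 was found in 8.55% (4.63 to 14.2) of 152 AHRfl/fl barcodes and 50.2% (46.3 to 54.2) of 643 AHRmKO barcodes, with exact Clopper-Pearson intervals. Without thinning the shares were 16.4% and 62.4%, at median depths of 4509 and 2982 UMIs. Mlf1 was found in 9.21% and 36.5% (unthinned 9.87% and 45.1%) and Rpl3l in 5.26% and 32.5% (9.21% and 42.5%). Pfkfb1 was found in 3.29% and 25.3% (5.92% and 34.7%), and Slc15a5 in 0.658% and 12.9% (0.658% and 17.1%). No pair of intervals overlapped for these 5 genes. Nrbp2 (3.95% and 4.35%) and Grip2 (2.63% and 3.89%) did not differ beyond counting error. Thinning does not hold fibre content fixed. The median share of gate genes in these barcodes was 5.77% and 9.10%. Myh4 was dominant in 117 and 384 of them, and Myh1 in 26 and 212. Among the Myh4-dominant ones, Slc38a3 was found in 9.40% and 43.5% after thinning. No pair of intervals overlapped there for the 5 genes, but the median share of gate genes still differed, at 5.79% and 9.70%. The part of these differences was not tested.

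In all Myh3-low barcodes of the 5% gate, at least 1 of the 5 genes was found in 21.1% (14.9 to 28.4) and 76.0% (72.6 to 79.3). At least 2 were found in 5.26% and 49.8%, and at least 3 in 0.658% and 24.7%, with fibre content again not held fixed. In barcodes that held Slc38a3 the mean was 1.15 and 1.87 UMIs, and for Mlf1 it was 1.5 and 1.58. Macrophage-class barcodes outside the gate, at median depths of 3022 and 3228 UMIs, held at least 1 of the 5 in 1.94% (146 barcodes) and 4.58% (118), and at least 2 in 0 and 1 barcode. Of these, 120 and 83 held Pfkfb1, so its share there is no plain background. The others were found in 0.146% and 0.777% (Mlf1), 0.0532% and 0.350% (Slc38a3) and 0.0266% and 0.0777% (Slc15a5) of macrophage-class barcodes, and Rpl3l in 9 and 5 barcodes. In all Myh3-high barcodes, Nrbp2 was found in 10.5% (9.51 to 11.6) and 27.6% (25.6 to 29.6), and Grip2 in 6.32% (5.52 to 7.20) and 14.8% (13.2 to 16.5), against 0.784% and 0.855%, and 0.518% and 1.13%, of macrophage-class barcodes. Without thinning these shares were 24.4% and 49.5% for Nrbp2, and 16.8% and 27.6% for Grip2. Both were thus found in more Myh3-high barcodes of the AHRmKO library, beyond counting error. The median share of gate genes in these barcodes was 2.93% and 5.62%, which thinning does not hold fixed.

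**Figure D4:**
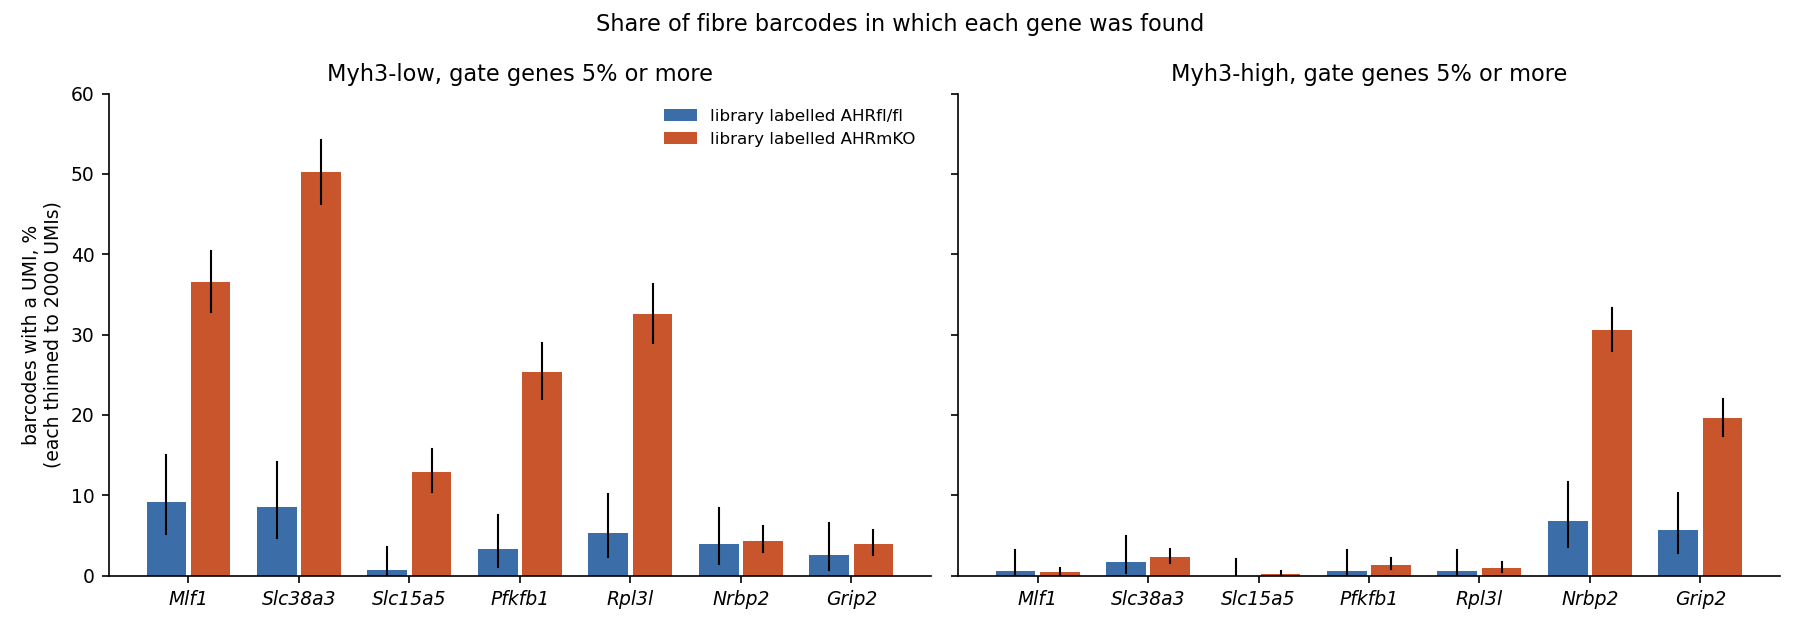
Percent of barcodes with at least 1 UMI of each gene after thinning each to 2000 UMIs, at the 5% gate, by library; lines are exact 95% Clopper-Pearson intervals. Slc38a3 is found in 8.55% and 50.2% of Myh3-low barcodes, and Nrbp2 in 6.86% and 30.6% of Myh3-high ones.

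Of 21 paralogs of the 7 genes, 17 had 20 or more UMIs in Myh3-low barcodes. Of these 1, Slc15a2, a peptide transporter like Slc15a5, was 2-fold or more higher (5.45 and 11.5 CPM, log2 ratio 1.01) and 0 were lower (background 11.0% and 18.0%), with a median log2 ratio of 0.14 beside -0.04 over all genes. The other 16 ranged from -0.67 (Slc38a4) to 0.75 (Mlf2). At the 5% gate 2 of 16 were higher, Slc15a2 (2.42, on 5 and 85 UMIs) and Pfkfb2 (1.28), and 1 was lower, Rpl3 (-1.50), with a median of 0.03. The background there was 13.6% and 12.9%, so the count of higher paralogs was near it.

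Rpl3 and Rpl3l take the same place in the ribosome. At the 5% gate of Myh3-low barcodes Rpl3 was at 148 CPM (111 UMIs) against 52.2 CPM (117 UMIs) while Rpl3l was at 21.3 and 206 CPM. Rpl3l thus made up 16 of 127 UMIs of the pair (12.6%, 7.38 to 19.7) in the AHRfl/fl library and 463 of 580 (79.8%, 76.3 to 83.0) in the AHRmKO library. In all Myh3-low barcodes it made up 3.48% and 30.4%, with Rpl3 itself at 151 and 147 CPM. In Myh3-high barcodes Rpl3l made up 1.34% and 3.12%, so most of the pair's UMIs were Rpl3 in both libraries. Free RNA bears on these shares, since the barcodes of 200 to under 500 UMIs held Rpl3 at 950 against 204 CPM. At the 5% gate that profile would bring 114 of the 148 CPM of Rpl3 and 36.4 of the 52.2 CPM. With it subtracted Rpl3l made up 38.5% and 92.8% there, and 25.8% and 93.1% with the profile of barcodes of at most 100 UMIs. In all Myh3-low barcodes it would bring 149 of 151 CPM and 72.8 of 147 CPM, and the shares of Rpl3l turned round to 68.1% and 44.9% (12.1% and 45.6% with the other profile). In Myh3-high ones they turned round under both, to 7.91% and 1.93%, and 3.47% and 2.80%. The order of the libraries in this share thus held with free RNA subtracted only at the 5% gate of Myh3-low barcodes, of these 3 sets, under both profiles. These shares are of UMIs counted at the end of the transcript and are not corrected for length.

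In the other families, whose shares were not recomputed with free RNA subtracted, the same gate gave Slc38a3 3.74% and 34.2% of the UMIs of all Slc38a genes, where Slc38a2, a glutamine and alanine transporter, was at 577 and 392 CPM. Slc15a5 made up 2.08% (1 of 48 UMIs) and 53.1% (199 of 375) of the Slc15a family. Pfkfb1 made up 4.35% and 33.6% of the Pfkfb family, of which Pfkfb3 was at 157 CPM in both libraries and Pfkfb4 at 172 and 119 CPM. Mlf1 made up 70.9% and 92.5% of the UMIs of Mlf1 and Mlf2, with Mlf2 at 21.3 and 21.4 CPM. In all Myh3-high barcodes Nrbp2 made up 59.2% and 72.8% of the UMIs of Nrbp1 and Nrbp2, and Grip2 40.5% and 50.9% of those of Grip1 and Grip2. At the 5% gate of Myh3-high barcodes the share of Grip2 had the other order, 75.4% (62.2 to 85.9, 43 of 57 UMIs) and 56.9% (53.9 to 59.9).

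**Figure D5:**
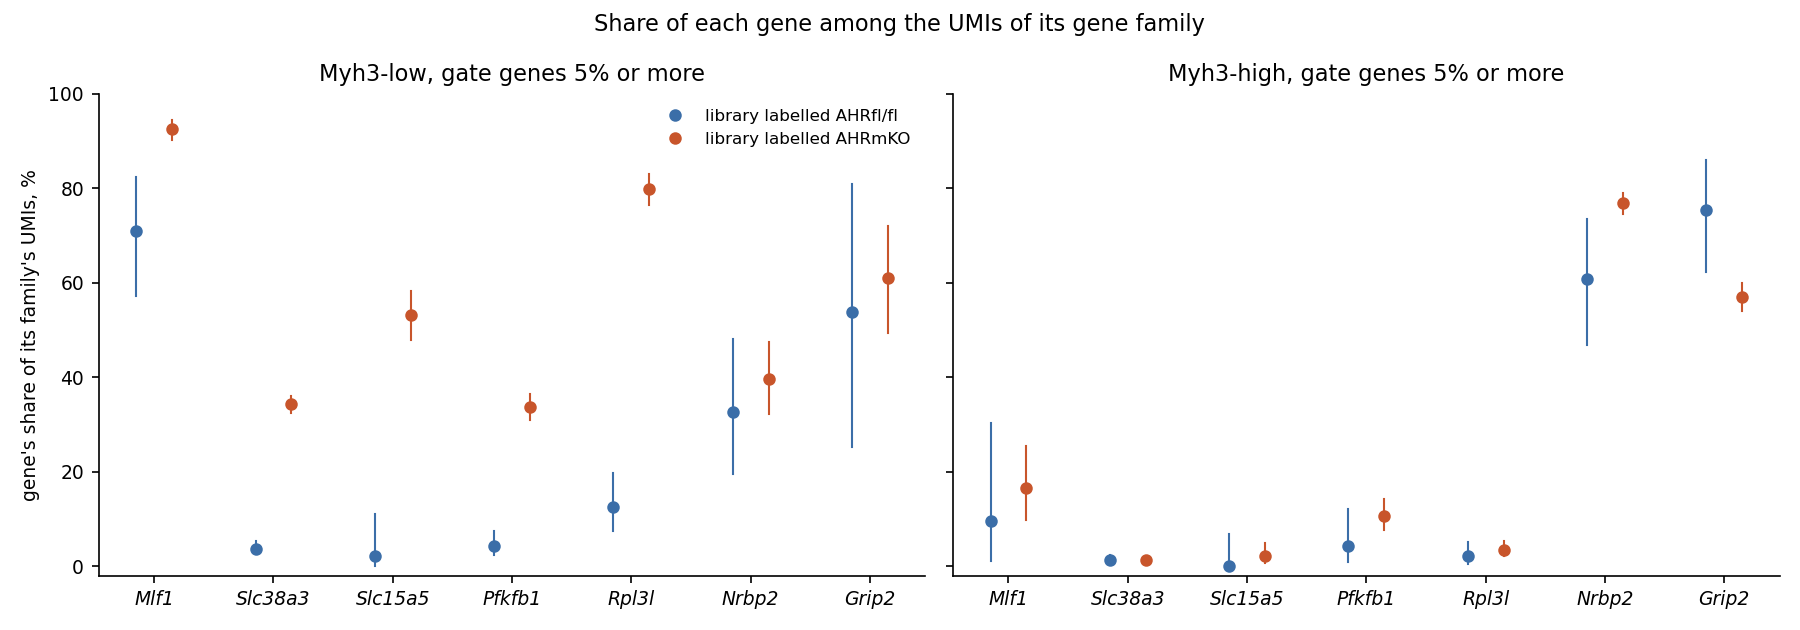
Percent of the UMIs of a gene family that belong to the named gene, at the 5% gate, in Myh3-low (left) and Myh3-high (right) barcodes of each library, with exact 95% Clopper-Pearson intervals. Rpl3l makes up 12.6% of the UMIs of Rpl3 and Rpl3l in the AHRfl/fl library and 79.8% in the AHRmKO library in Myh3-low barcodes, and 2.06% and 3.52% in Myh3-high ones, all before free RNA is subtracted.

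Other fibre genes were described from lists of known markers. Of 25 genes of adult fast fibres, 6 were 2-fold or more higher and 2 lower in Myh3-low barcodes of the AHRmKO library (background 11.0% and 18.0%), with a median log2 ratio of 0.70 beside -0.04 over all genes. The highest were Myh2 (4.62 and 62.3 CPM, 3.62) and the fast myosin binding protein Mybpc2 (7.57 and 57.5 CPM, 2.84), and the lowest the myosin light chain Mylpf (586 and 67.6 CPM, -3.11) and the fast troponin Tnnc2 (164 and 56.9 CPM, -1.52). With gate genes at 5%, 11 were higher and 2 lower (background 13.6% and 12.9%), with a median of 0.95. The count of higher genes depended on the processing, from 2 at 5000 or more UMIs per barcode to 15 without barcodes of another class and 16 with the profile of barcodes of 200 to under 500 UMIs subtracted.

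Of 15 genes of immature fibres 0 were 2-fold or more higher and 10 lower in Myh3-low barcodes (background 11.0% and 18.0%), with a median log2 ratio of -1.49. Myh3, whose share sets this gate, is on the list and among the 10, at -1.54, so the count is not independent of the gating. At the 5% gate it is among the lower genes too, at -1.58. Myh8, the perinatal myosin, was at 358 and 35.4 CPM (-3.32) and Actc1, cardiac actin, at 263 and 45.9 CPM (-2.51). Cdh15 (0.67) and Runx1 (0.29) had the highest ratios. In the stricter gate 11 of 15 were lower (background 12.9%), with a median of -1.85. The count was 6 with the profile of barcodes of 200 to under 500 UMIs subtracted, 4 with Myh3 split at 0.5% and 2 with no split. The part this has in the differences of the 5 genes was not tested.

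Genes that act beside the transporters and Pfkfb1 were counted against the same background, 11.0% higher and 18.0% lower in Myh3-low barcodes. Of 13 genes of glutamine and amino acid handling 2 were higher, the aspartate aminotransferase Got1 (30.5 and 77.8 CPM, 1.34) and the glutamine carrier Slc1a5 (24.6 and 53.9 CPM, 1.12), and 0 lower, with a median of 0.10. Slc7a8 (-0.67) and Got2 (-0.46) had the lowest ratios. Of 9 genes of fructose phosphate control with 20 or more UMIs 1 was higher, the phosphofructokinase Pfkl (8.31 and 18.6 CPM, 1.12), and 0 lower, with a median of 0.46. Prkag1 (0.74) came next, and Prkaa2 (-0.38) and Hk2 (0.05) were lowest. Of 7 genes of neuromuscular and myotendinous nuclei, 0 were higher and 1 was lower, Colq (34.4 and 10.6 CPM, -1.65), with a median of -0.17. Behind the stricter gate (background 13.6% and 12.9%), 2 glutamine genes of 11 with 20 or more UMIs were higher and 1 lower (median 0.14), 3 of 9 fructose phosphate genes were higher and 0 lower (0.36), and 0 of 3 neuromuscular genes were higher and 2 lower (-1.70).

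Outside the fibre gate, barcodes were put in a class by its markers. Among 7525 and 2574 macrophage-class barcodes Pfkfb1 was at 9.38 CPM (285 UMIs) against 19.4 CPM (233 UMIs), which gave a log2 ratio of 1.01 (0.80 to 1.31), and the other 4 genes of its group were at 0.0987 to 0.987 CPM and 0.334 to 2.50 CPM. By count 3 of 6 genes were 2-fold or more higher there, beside 2.77% of genes. In 1633 and 731 fibroadipogenic barcodes Nrbp2 was at 18.9 CPM (139 UMIs) against 58.9 CPM (202 UMIs), which gave a log2 ratio of 1.62 (1.32 to 1.96), and 3 of 4 genes were higher (background 5.07%). In 693 and 499 satellite cell barcodes Nrbp2 was at 33.0 and 48.7 CPM and Pfkfb1 at 16.5 and 22.9 CPM, with 1 of 3 genes higher, Grip2, on 8 and 18 UMIs (6.08%). Only 14 and 18 barcodes were adipocytes by their markers, and Pfkfb1 in them was at 298 CPM (22 UMIs; 187 to 451) against 146 CPM (12 UMIs; 75.4 to 255).

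Slc38a3, Slc15a5 and Rpl3l were at or under 2.25 CPM in macrophage, satellite cell, fibroadipogenic and endothelial barcodes of both libraries. In barcodes of 200 to under 500 UMIs, taken here as droplets of free RNA, 6 of the 7 genes were 2-fold or more higher, beside 9.75% of genes, with Slc38a3 at 1.08 and 7.71 CPM. Nrbp2 was the exception. Macrophage, satellite cell, fibroadipogenic and endothelial barcodes held 7 values past 2-fold in all, and 2 with this profile subtracted or 3 with that of barcodes of at most 100 UMIs subtracted.

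Over 20 sums, 10 sets of barcodes in each of the libraries, the genes whose levels most resembled the mean of the 7 were found by Pearson's r of log2(CPM + 0.5) among 15548 genes. The points share libraries and depth, so r is a description, and each of the 7 genes is part of the mean it is set against. Nearest were Tcap, the titin cap protein of the Z-disc (r = 0.95), the heparan sulfate sulfotransferase Hs3st5 (0.94), the importin Ipo13 (0.93), the unconventional myosin Myo5c (0.93) and Mybpc2 (0.92). Gm50194, Agbl1, Asb18, Wnk2 and Exd2 followed, down to 0.90. Hs3st5 was at 26.0 and 256 CPM in Myh3-low barcodes and 1.91 and 5.98 CPM in Myh3-high ones, and Agbl1 at 76.0 and 696 CPM, and 43.3 and 47.0 CPM. Tcap was at 41.5 and 126 CPM, and 21.4 and 26.9 CPM.

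The 7 genes differed in how near they stood to their mean, with r of 0.97 for Slc38a3, 0.95 for Rpl3l, 0.89 for Slc15a5, 0.80 for Mlf1, 0.60 for Pfkfb1, 0.46 for Nrbp2 and 0.44 for Grip2. As a split made after these values were seen, Nrbp2 and Grip2 were set apart. Nearest to that pair were Mtor, the growth kinase (0.96), Brwd1 (0.95) and Prrc2b (0.95), followed by Rps6kb2, a kinase that phosphorylates ribosomal protein S6 (0.94), which was at 56.0 and 98.2 CPM in Myh3-high barcodes. With the pair, r was 0.44 for Slc38a3, 0.32 for Rpl3l, 0.11 for Slc15a5, -0.07 for Mlf1 and -0.27 for Pfkfb1. Nearest to the mean of these 5 genes were Gm45012 (0.97), Ces1d (0.96), Hs3st5 (0.95) and Gm50194 (0.95). Tcap, Ipo13 and Mybpc2 were not among the 10 nearest to that mean.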

How the data were processed

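Single nuclei of tibialis anterior were profiled with Chromium 3′ chemistry in 1 library per group. The submitters' processing notes name Cell Ranger 7.0.1 and mm10, whereas the file headers name Cell Ranger 4 as the software version. The deposited matrices hold raw UMI counts per gene and barcode, made by the authors with no normalization, per the file headers. Whether introns or strand entered the counting is not given in the sources used here. The 7 genes and every gene list were chosen with earlier results of these data known.

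From the counts, barcodes with 2000 or more UMIs were kept. Those with Ttn, Neb, Trdn and Dmd at 1% or more of UMIs formed the fibre gate, split by Myh3 at 0.1% and by the most abundant of Myh4, Myh1 and Myh2. No minimum was set for that myosin, and ties counted as none dominant. Barcodes outside the gate got a class when they had 3 or more UMIs of at least 2 of its markers, and at least 2 times the next class. Counts were summed per library. The share of free RNA in fibre barcodes was the share of macrophage, fibroadipogenic and endothelial markers, divided by that of the profile. It was taken from barcodes without another class's markers, which were selected for few of these, and applied to all barcodes of the set. For the other classes Ckm, Acta1, Myh1 and Myh4 took the place of these markers. The effect of these choices was not tested. CPM carries an exact Poisson interval, and the log2 ratio (0.5 CPM added) is printed with an exact conditional binomial interval. Both are at 95% and cover counting error only. The second is that of the ratio without the 0.5 CPM, so for low genes it is not centred on the printed ratio. A gene was counted as 2-fold different at a log2 ratio of 1 or more with 20 or more UMIs over both libraries. Cells are not replicates, so with 1 library per group no p-value was computed. Zero counts were bounded at 3 counts, and fold bounds drawn from them leave out the counting error of the other library. No doublet caller was run: barcodes with markers of another class were counted and left out in an alternative. Named were the 7 genes, Ahr, the myosins, the gate genes, the paralogs, the 2 highest and 2 lowest log2 ratios of each list among genes with 30 or more UMIs, and the 10 genes nearest by correlation. Apex2, Gm42418 and the genes nearest to Nrbp2 and Grip2 were chosen after their values were seen. The ratio, its interval and the 2-fold call were tested on simulated Poisson counts, which have no spread between barcodes or animals. The gates, classes, free RNA subtraction, family shares and correlations were not tested in this way. Python 3.11.15, numpy 2.4.6, scipy 1.17.1, pandas 2.3.3 and matplotlib 3.10.9 were used. Positions are from the GRCm38 annotation.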

Additional observations from a re-analysis of the deposited data

Results flagged for a closer look

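Grip2 had opposite directions in the 2 main fibre sets, with a log2 ratio of AHRmKO over AHRfl/fl of -0.53 in Myh3-low barcodes and 1.15 in Myh3-high ones. The direction in Myh3-low barcodes depended on the processing. It turned under 4 of 22 alternatives, up to 1.13 at the 5% gate, where Grip2 was higher in the AHRmKO library in both sets. The difference between the sets was not tested.

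All 7 genes were also detected in data outside the comparisons, the barcodes of 200 to under 500 UMIs, 79956 in the AHRfl/fl library and 138289 in the AHRmKO library. In the AHRmKO library Mlf1 was at 8.94 CPM, Slc38a3 at 7.71 CPM, Slc15a5 at 2.58 CPM, Pfkfb1 at 15.8 CPM, Rpl3l at 10.4 CPM, Nrbp2 at 16.0 CPM and Grip2 at 22.9 CPM. The AHRfl/fl library had 1.12, 1.08, 0.0603, 3.80, 1.93, 10.6 and 4.37 CPM in the same order. By count 6 of the 7 were 2-fold or more higher, with Nrbp2 at a log2 ratio of 0.57, beside 9.75% of 17911 genes.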

How the results depend on the processing

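Counts and log2 ratios of the 7 genes were recomputed under 22 alternatives, 20 of them planned and 2 added after seeing the data (a minimum of adult myosin and a gate without Dmd). Of these, 21 gave values for Myh3-high barcodes, 20 for Myh2-dominant ones, 10 were run for the nearest genes and 8 for the thinned shares of barcodes. The Rpl3l share of its pair was recomputed with the 2 profiles, also added after seeing the data. Other family shares, and levels in other classes one by one, were not recomputed. Of 255 recomputed values of 13 counts 201 stayed within 1.5 times. The counts of the 7 genes past 2-fold in Myh3-low barcodes, with Myh4 or Myh1 dominant, and in Myh3-low over Myh3-high barcodes of the AHRmKO library, did so under each alternative that gave a value. In Myh3-low barcodes the log2 ratio ranged from 2.33 to 4.11 for Mlf1, 3.06 to 4.49 for Slc38a3, 2.39 to 6.49 for Slc15a5, 2.38 to 3.94 for Pfkfb1, 2.73 to 3.87 for Rpl3l, -0.77 to 1.20 for Nrbp2 and -2.25 to 1.13 for Grip2. In Myh3-high barcodes Nrbp2 ranged from 1.55 to 2.55, and Grip2 reached 4.64 and was not under 1.

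Single genes whose counting interval excluded 0 changed sign as follows. Grip2 in Myh3-low barcodes was at 1.13 with gate genes at 5% or more, 0.036 and 0.39 with Myh3 split at 0.05% and 0.5%, and 0.79 with no split. Rpl3l in Myh3-high barcodes was at -0.042 and -0.22 with gate genes at 3% and 5%, -1.63 with the split at 0.5%, and -0.28 and -0.055 with the profile of 200 to under 500 UMIs or of at most 100 UMIs subtracted. Mlf1 there was at -0.76 with the first profile. Where the interval held 0, the sign was the same under 17 of 22 alternatives for Nrbp2 in Myh3-low barcodes, 15 with Myh4 and 16 with Myh1 dominant, and under 12 of 22 for Grip2 with Myh4 dominant (up to 1.76) and 20 of 22 with Myh1 dominant (up to 1.08).

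Counts moved as follows, and the cause was not tested. The adult fast genes higher (6) were 13 at 1000 UMIs per barcode, 2 at 5000, 12 and 11 with gate genes at 3% and 5%, 15 without barcodes of another class, 11 after thinning, 13 by mean per barcode, 16 and 10 with the profiles subtracted, 2 at a log2 ratio of 2 and 15 with adult myosin at 0.2%. The immature genes lower (10) were 4 with the split at 0.5%, 2 with no split, 6 with the first profile and 4 at a log2 ratio of 2. The paralogs higher (1) were 0 at 5000 UMIs, at either other split, with no split, with 5 CPM added and at a log2 ratio of 2, 2 at the 5% gate, and 3 with either profile and with adult myosin at 0.2%. The 7 genes past 2-fold in Myh3-high barcodes (4) were 2 at 5000 UMIs, at the 5% gate, with the split at 0.5%, with 5 CPM added and with the second profile, and 0 at a log2 ratio of 2. Those with Myh2 dominant (2, a count the filter fixes, since the AHRfl/fl library held 0 UMIs of both) were 0 at 5000 UMIs and among genes with 100 or more UMIs, 1 without another class, at a mitochondrial share of at most 5%, after thinning and with either profile, and 5 with no filter on low genes. Those summed over other classes (7) were 2 at 5000 UMIs, 3 after thinning, 1 with 5 CPM added, 2 and 3 with the profiles, 2 among genes with 100 or more UMIs, 14 with no filter and 0 at a log2 ratio of 2. In Myh3-low over Myh3-high barcodes of the AHRfl/fl library (3), 1 was past 2-fold at 5000 UMIs, with 5 CPM added and at a log2 ratio of 2. Of the 10 nearest genes, 5 remained at 5000 UMIs and with adult myosin at 0.2%, 3 at the 5% gate and 2 with the split at 0.5%.

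No paired analysis was possible because each group has 1 library and no result comes from a test, and for the same reason leaving out a replicate was not possible. Depth limits Slc15a5 most, with 9 UMIs in Myh3-low barcodes of the AHRfl/fl library. The median gene stood at a log2 ratio of -0.15 in Myh3-high and -0.19 in macrophage-class barcodes, and ratios there are to be read against it.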
